A study of Mus musculus with 12 samples.

Results

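The 10 genes described here carry glucose into the cell, break it down to pyruvate and lactate, and carry the lactate out. They were given as a list by symbol: the glucose transporter Slc2a1, the enzymes Hk2, Pfkp, Aldoa, Pgk1, Eno1, Pkm and Ldha, the lactate transporter Slc16a3, and Hif1a, a transcription factor subunit. Each matched 1 identifier, so 10 of the 56923 genes in the count table are members, and all 10 were among the 18529 genes with enough counts to be tested.

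Back skin was sequenced as bulk RNA from 12 female C57BL/6 mice aged 8 to 10 weeks, 3 in each of 4 groups, to ask what LCN2, a secreted lipocalin, does in psoriasis-like skin. WT mice and Lcn2-/- mice, whose genotype the sample labels call a knockdown, had a shaved back treated for 6 days with 5% imiquimod (IMQ) cream, a Toll-like receptor agonist, or with a vehicle cream that the labels record as no treatment. By the methods of the study the WT mice were littermates of the Lcn2-/- mice. Each library is 1 mouse. The groups are called WT control, WT IMQ, KO-labelled control and KO-labelled IMQ.

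Glycolysis splits glucose into pyruvate and yields ATP without oxygen, and lactate dehydrogenase then turns pyruvate into lactate so that the pathway can keep running. Epidermal keratinocytes take up glucose mainly through GLUT1, the product of Slc2a1, and rapidly growing or inflamed epidermis is known for high glycolysis. Hypoxia-inducible factor 1, whose oxygen-regulated subunit is the product of Hif1a, binds short hypoxia response elements and switches on many glycolytic genes, while HIF-1α itself is regulated mainly as a protein.

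Because that factor is known to regulate many glycolytic genes, the core of the hypoxia response element, ACGTG or GCGTG, was searched for on both strands. The search covered the 250 bases before the transcript starts that RefSeq gives for the members (assembly GRCm38.p6). ACGTG also lies within the E-box CACGTG, and a core inside an E-box was counted once. Of the 16 windows of the members, 14 (87.5%) held a core, against 38.6% of the 32851 windows of all genes in the table, and 9 of 16 (56.2%) held at least 2, against 13.7%. Windows of the same gene can overlap. Counted from upstream, windows 2 and 3 of Aldoa hold the same core, and windows 2 and 3 of Eno1 hold the same 2 cores. Such cores were counted in each window. By gene, each of the 10 had a core in at least 1 window, which 41.5% of 27025 genes had. The E-box was in 2 of the 16 windows (12.5%), against 6.02% of all windows. These are counts of letters and were not tested as binding sites. The windows of all genes were not matched to those of the members in base composition. Whether the factor acts on the members in these mice was not tested. The windows of 6 members follow, 5′ to 3′ on the strand of the gene, with the cores in capitals (CACGT and CACGC are the cores of the other strand). In each of them the cores lie outside annotated exons. Other windows with such cores are not shown, among them window 1 of Eno1 and window 2 of Ldha with 1 core each. In the Pfkp window, the 6 bases that an exon covers are left out.

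Hif1a, chr12:73907617-73907866, plus strand: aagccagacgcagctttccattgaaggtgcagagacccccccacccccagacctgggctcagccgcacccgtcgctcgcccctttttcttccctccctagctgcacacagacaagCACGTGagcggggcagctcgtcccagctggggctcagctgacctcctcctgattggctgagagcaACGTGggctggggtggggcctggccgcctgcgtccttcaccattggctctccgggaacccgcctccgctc
Hk2, chr6:82774455-82774704, minus strand: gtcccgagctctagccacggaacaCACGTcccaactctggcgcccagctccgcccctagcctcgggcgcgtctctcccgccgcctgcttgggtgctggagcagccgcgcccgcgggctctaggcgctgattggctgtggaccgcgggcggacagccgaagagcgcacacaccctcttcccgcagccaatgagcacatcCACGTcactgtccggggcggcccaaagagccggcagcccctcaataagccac
Pfkp, chr13:6648778-6649021, minus strand: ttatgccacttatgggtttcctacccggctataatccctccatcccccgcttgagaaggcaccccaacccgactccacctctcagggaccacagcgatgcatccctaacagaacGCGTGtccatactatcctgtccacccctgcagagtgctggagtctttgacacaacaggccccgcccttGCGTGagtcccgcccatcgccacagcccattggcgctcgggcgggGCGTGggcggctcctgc
Aldoa, chr7:126799255-126799504, minus strand: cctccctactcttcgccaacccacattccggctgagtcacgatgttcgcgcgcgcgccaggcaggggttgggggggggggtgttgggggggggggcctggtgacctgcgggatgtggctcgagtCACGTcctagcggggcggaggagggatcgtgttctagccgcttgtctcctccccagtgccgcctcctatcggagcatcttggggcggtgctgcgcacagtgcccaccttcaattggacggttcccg
Pgk1, chrX:106186850-106187099, plus strand: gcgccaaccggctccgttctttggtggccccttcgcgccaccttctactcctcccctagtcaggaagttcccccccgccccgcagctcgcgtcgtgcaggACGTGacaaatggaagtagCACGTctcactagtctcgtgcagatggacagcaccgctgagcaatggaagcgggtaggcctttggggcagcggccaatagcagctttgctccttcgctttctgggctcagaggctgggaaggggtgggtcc
Ldha, chr7:46845554-46845803, plus strand: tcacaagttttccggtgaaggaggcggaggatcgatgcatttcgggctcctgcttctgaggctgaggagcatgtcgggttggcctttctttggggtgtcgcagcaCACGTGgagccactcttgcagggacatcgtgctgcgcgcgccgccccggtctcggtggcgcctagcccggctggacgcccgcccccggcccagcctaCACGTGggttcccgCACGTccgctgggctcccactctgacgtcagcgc

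The Hif1a window held 2 cores, 1 of them within an E-box, and the Ldha window held 3, with 2 E-boxes. Pfkp, whose response to IMQ differed most between the genotype labels among the members, held 3 cores without an E-box. The Slc2a1 window held cores that begin 61 and 36 bases before the start, and the Slc16a3 window held cores that begin 27 and 14 bases before it. Aldoa, the member that fell, had no core in the window of its most upstream start and 1 in the window shown.

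Library totals lay between 16448226 and 28592110 counts, and 3 counts in a library correspond to between 0.105 and 0.182 CPM (counts scaled to library size), so depth did not limit any member. CPM values below use library sizes scaled by TMM, and a log2 fold change with its standard error (SE) comes from edgeR's quasi-likelihood fit over all 12 mice, with Benjamini-Hochberg adjustment over all 18529 genes. A gene is said to have risen or fallen where the adjusted p was below 0.05. The skin label was checked first, because an extraction label of the series names retina: the keratinocyte keratin Krt14 was between 1154 and 1879 CPM in WT controls and between 10042 and 16988 CPM in WT IMQ mice, so epidermis was present in them. In these bulk samples, fewer cells of a type and less RNA per cell cannot be told apart.

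The deleted gene was checked in each library. Lcn2 was at 6.29, 8.64 and 4.57 CPM in the WT controls and at 61.2, 183 and 76.1 CPM in WT IMQ mice. In the KO-labelled mice it was at 10.51, 9.22 and 15.9 CPM in controls and at 34.3, 29.9 and 49.8 CPM after IMQ. The KO-labelled controls were thus not below the WT controls, and Lcn2 rose with IMQ under both labels, by 4.03 ± 0.44 in WT and by 1.67 ± 0.40 in KO-labelled mice (log2 fold change ± SE; adjusted p = 8.1e-05 and 0.0121 by edgeR's quasi-likelihood test). The KO-labelled call was lost without KO-labelled IMQ mouse 3 (1.43, adjusted p = 0.0536). After IMQ the KO-labelled mice all lay below the WT mice. That log2 fold change of -1.49 missed the threshold (edgeR's quasi-likelihood test, adjusted p = 0.0525). Lcn2 reads were thus present in every KO-labelled library, and the controls do not bear out the knockout label. Each direction drawn between genotypes below is therefore between libraries labelled WT and libraries labelled KO. A count per gene does not show which part of the gene the reads came from.

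**Figure D1:**
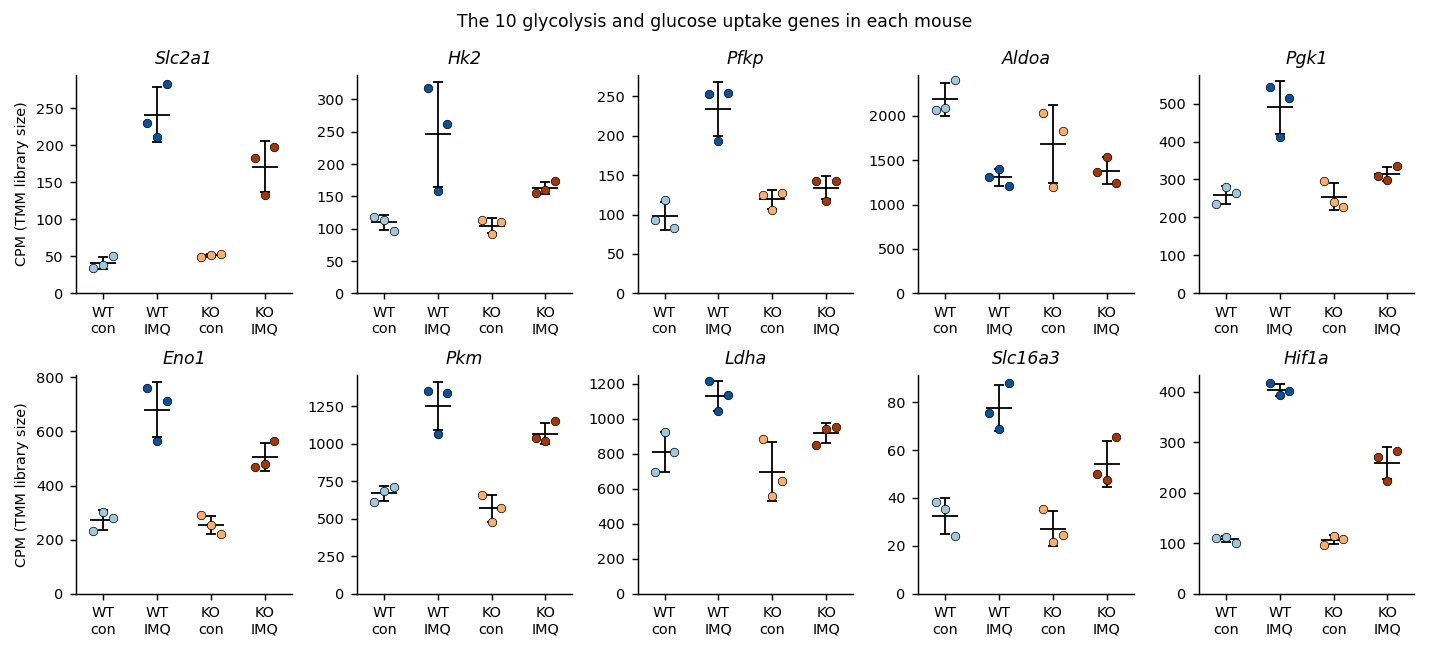
CPM of the 10 members in each of the 12 mice; each panel is a gene with its own linear axis from 0, points are mice, the bar is the group mean and the whiskers are the SD of 3 mice. In WT mice the IMQ points lie above the control points for 9 genes and below them for Aldoa, and the KO-labelled IMQ points lie below the WT IMQ points for 7 genes.

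In WT skin, 8 of the 10 members rose with IMQ (Slc2a1, Hk2, Pfkp, Pgk1, Eno1, Pkm, Slc16a3 and Hif1a), while Aldoa fell and Ldha did not pass the test. Over all genes tested, 28.5% were called in this comparison, 14.2% as higher and 14.3% as lower. The median log2 fold change of the members was 1.21, against -0.02 over all genes. In each of the 10 the 3 IMQ mice and the 3 controls did not overlap, with 9 members higher and 1 lower after IMQ. That held for 40.6% of all genes, 20.1% higher and 20.6% lower.

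The glucose transporter gene Slc2a1, which encodes GLUT1, had the largest log2 fold change of the 10. It was at 34.4, 38.5 and 50.7 CPM in the WT controls and at 230.2, 211 and 283 CPM in the WT IMQ mice. The lowest IMQ mouse was far above the highest control. The difference was 5.86-fold, a log2 fold change of 2.55 ± 0.19 (edgeR's quasi-likelihood test, adjusted p = 3.79e-06), and stayed between 2.42 and 2.72 when any of the 6 mice was left out.

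Hif1a, the oxygen-regulated subunit, varied little within either WT group. It was at 109.6, 112 and 101 CPM in WT controls and at 417, 394 and 400.5 CPM in WT IMQ mice. Its log2 fold change was 1.91 ± 0.12 (edgeR's quasi-likelihood test, adjusted p = 1.77e-06), 3.76-fold.

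Phosphorylation of glucose by hexokinase and the committed step at phosphofructokinase come next. Hk2, the inducible hexokinase, was at 119, 114 and 97.0 CPM in WT controls and at 318, 158.5 and 262 CPM in WT IMQ mice. Mouse 2 of the IMQ group lay well below the other 2 and still above each control, and the log2 fold change was 1.16 ± 0.21 (edgeR's quasi-likelihood test, adjusted p = 0.00176). Pfkp, the platelet-type phosphofructokinase, was at 92.9, 118 and 83.0 CPM in WT controls and at 253, 194 and 254 CPM in WT IMQ mice, again with IMQ mouse 2 as the lowest. Its log2 fold change was 1.25 ± 0.16 (edgeR's quasi-likelihood test, adjusted p = 0.000202). Exons of Pfkp overlap those of Pitrm1 on the opposite strand, and Pitrm1 holds 57.9% as many counts. The sources used here do not say whether strand was used in counting, so reads of the 2 genes cannot be told apart where they overlap. Pitrm1 had log2 fold changes of -0.53 ± 0.21 with IMQ in WT, -0.83 ± 0.21 with IMQ under the KO label, -0.07 ± 0.21 between the IMQ groups and -0.30 ± 0.29 for the difference of the responses, of which only the second passed (edgeR's quasi-likelihood test, adjusted p = 0.0142). The part of shared reads in the Pfkp values was not tested.

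The later steps of the pathway split into genes that rose and genes that did not. Pgk1, the phosphoglycerate kinase that makes the first ATP of the pathway, was at 235, 281 and 264 CPM in WT controls and at 543.5, 412 and 515 CPM in WT IMQ mice. Eno1, the widely expressed enolase, was at 233, 303 and 280.2 CPM in controls and at 761, 566 and 713 CPM after IMQ. Pkm, the pyruvate kinase gene, was at 612, 686 and 708 CPM in controls and at 1352, 1065 and 1334 CPM after IMQ. All 3 rose without overlap, by 0.92 ± 0.14, 1.32 ± 0.16 and 0.90 ± 0.15 on the log2 scale (edgeR's quasi-likelihood test, adjusted p = 0.000763, 0.000135 and 0.00122). Near-identical copies elsewhere in the genome held 0.7%, 2.16% and 0.6% as many counts as these 3 genes, and Pkm also overlaps Gm49759 on its own strand, so reads there cannot be told apart.

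Ldha, the lactate dehydrogenase subunit that favours lactate, was at 697, 926 and 811 CPM in WT controls and at 1216, 1045 and 1134 CPM after IMQ. The groups did not overlap, but its log2 fold change of 0.48 ± 0.17 missed the threshold (edgeR's quasi-likelihood test, adjusted p = 0.0589). It passed when WT control 2 was left out (adjusted p = 0.045). Slc16a3, which encodes the lactate exporter MCT4, was at 38.1, 35.2 and 24.1 CPM in controls and at 75.4, 69.0 and 88.1 CPM after IMQ, a log2 fold change of 1.25 ± 0.22 (edgeR's quasi-likelihood test, adjusted p = 0.00147).

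Aldoa, the aldolase of muscle and most other tissues, went the other way. It was at 2068, 2083 and 2405 CPM in WT controls and at 1309, 1402 and 1208 CPM in WT IMQ mice, a log2 fold change of -0.74 ± 0.19 (edgeR's quasi-likelihood test, adjusted p = 0.0121). Without WT IMQ mouse 3 the adjusted p was 0.0516. Skeletal muscle markers moved with it: of 15 (contractile and muscle energy genes such as Acta1 and Ckm), 11 fell and 1, Myh2, rose, and their summed level was between 17118 and 17863 CPM in WT controls and between 7402 and 9493 CPM in WT IMQ mice. Keratinocyte markers went up over the same mice, 14 of 15, from a summed 5628 to 9325 CPM up to 25011 to 35340 CPM, and 8 of the 9 tested neutrophil markers rose, from a summed 60.6 to 144.5 CPM to between 6157 and 10320 CPM. No marker gene of these 3 lists was at 0 throughout a group. The part of these shifts in the member values was not tested.

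Levels can be compared between genes only per length, and for this the CPM were divided by kilobases of annotated exon (RPKM). The length was the union of all annotated exons of a gene, not that of the transcripts present in skin. It was 13401 bases for Pfkp and 5379 for Eno1 against 2244 for Pgk1, so the order below depends on this choice. In WT controls the order of the group means was Aldoa (750.7 RPKM), Ldha (245), Pkm (134), Pgk1 (116), Eno1 (50.6), Hk2 (18.4), Hif1a (18.2), Slc2a1 (11.8), Pfkp (7.32) and Slc16a3 (6.11). The mice of Pkm and Pgk1 overlapped, as did those of Hk2 and Hif1a and those of Pfkp and Slc16a3, while the other neighbours did not. After IMQ in WT mice, Slc2a1 (68.8 RPKM) and Hif1a (68.5 RPKM) both stood above Hk2 (41.2 RPKM), and the gap between Aldoa (448.8 RPKM) and Ldha (342 RPKM) had narrowed. The order in KO-labelled controls differed only in Hif1a (18.1 RPKM) and Hk2 (17.5 RPKM), whose mice overlapped. Under IMQ with the KO label, Slc16a3 (10.2 RPKM) and Pfkp (10.01 RPKM) came last, and their mice overlapped.

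**Figure D2:**
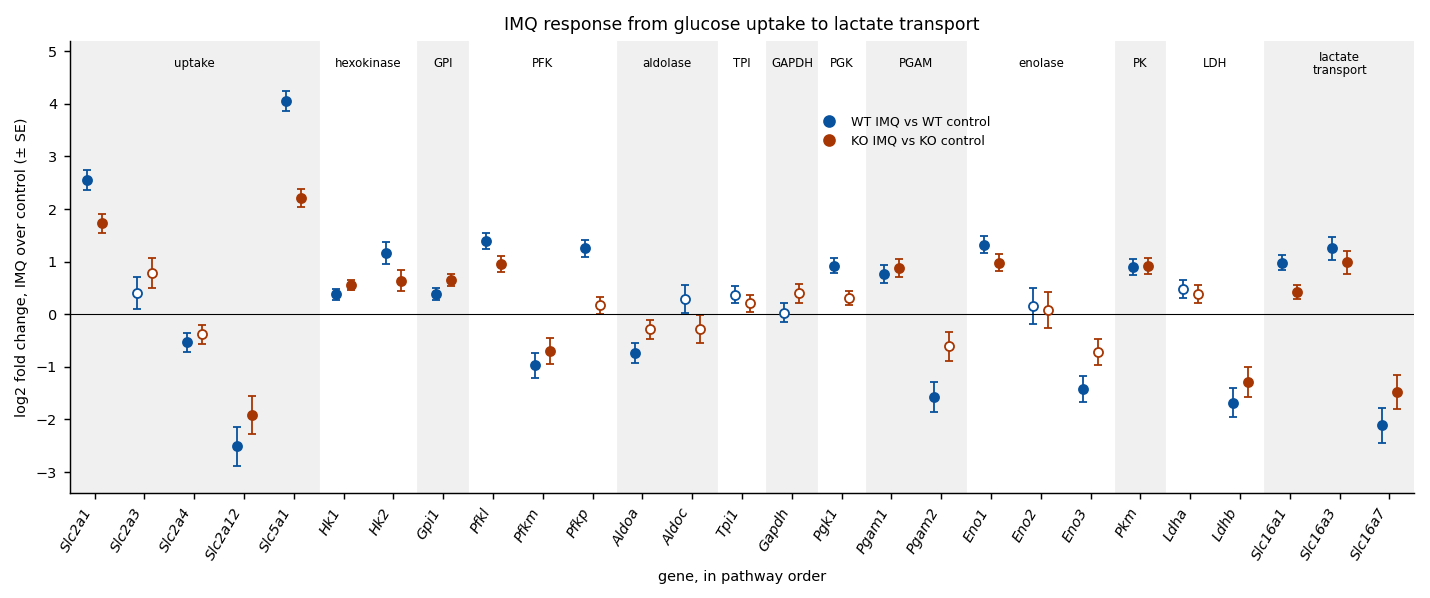
log2 fold change ± SE of IMQ over control from edgeR for members and the other genes of their steps, in pathway order; blue is WT, brown is KO-labelled, filled points passed an adjusted p of 0.05 and open points did not. At the enolase, lactate dehydrogenase and phosphofructokinase steps one gene lies above 0 and another below it.

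The other genes of each step moved unevenly. Of 16 tested glycolytic enzymes outside the list (19 were listed), 5 rose and 4 fell in WT mice, and the 4 that fell are isoenzymes known from muscle or heart: Pfkm (-0.97 ± 0.24), Pgam2 (-1.57 ± 0.28), Eno3 (-1.42 ± 0.25) and Ldhb (-1.68 ± 0.28), with adjusted p = 0.0107, 0.00191, 0.0018 and 0.00123 by edgeR's quasi-likelihood test. Their widely expressed partners Pfkl (1.39 ± 0.15) and Pgam1 (0.77 ± 0.17) rose with Eno1, as did Hk1 (0.38 ± 0.10), Gpi1 (0.39 ± 0.11) and the ADP-dependent glucokinase Adpgk (0.71). When the 6 mice were dropped one at a time, Hk1 kept its call 4 times and Gpi1 3 times. Tpi1 (0.37 ± 0.16) and Gapdh (0.03 ± 0.18) did not pass; Gapdh has many processed copies in the mouse genome, which can take reads from it.

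Shares of counts within a step do not depend on how a library is scaled. They are not corrected for length, so only their change between groups is read. The partners Eno3, Pfkm and Slc2a4 are known from muscle. Summed skeletal muscle markers were between 17118 and 17863 CPM in WT controls and between 7402 and 9493 CPM in WT IMQ mice. The part of muscle content in these shares was not tested. Eno1 took 30.7% ± 3.28 (SD, n = 3) of the counts on Eno1, Eno2 and Eno3 in WT controls and 74.4% ± 0.93 after IMQ. Slc2a1 took 30.0% ± 5.72 of the counts on Slc2a1, Slc2a3 and Slc2a4 in controls and 77.1% ± 3.62 after IMQ. For Pfkp among Pfkl, Pfkm and Pfkp the share went from 18.9% ± 3.48 to 42.4% ± 0.23, and for Ldha against Ldhb from 83.0% ± 2.81 to 95.6% ± 1.74. Aldoa against Aldoc went the other way, from 99.6% ± 0.10 to 99.1% ± 0.07, a fall of its share. In these 5 the WT groups did not overlap, and each gave p = 0.1, the smallest that a two-sided exact permutation test of 3 against 3 can give (0.14 adjusted over 7 ratios). Hk2 among the hexokinases Hk1, Hk2 and Hk3 (55.1% to 65.4%, exact permutation p = 0.2) and Slc16a3 against Slc16a1 (39.3% to 43.8%, exact permutation p = 0.4) overlapped.

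In KO-labelled mice, Eno1 went from 38.4% ± 9.80 to 65.5% ± 6.61, Slc2a1 from 34.6% ± 6.90 to 66.2% ± 5.71 and Ldha from 82.9% ± 1.75 to 93.9% ± 1.71. Slc16a3 went from 37.1% ± 3.5 to 47.0% ± 4.38, and Hk2 went down, from 58.6% ± 0.33 to 56.6% ± 1.61. These 5 did not overlap, each with exact permutation p = 0.1 (0.14 adjusted over 7 ratios), while Aldoa overlapped (99.4% and 99.5%, exact permutation p = 0.9). The Pfkp share, at 25.4% ± 3.97 and 31.4% ± 3.46, overlapped between KO-labelled controls and IMQ mice (exact permutation p = 0.2). Between the IMQ groups, the shares of Pfkp (27.9% to 34.8% with the KO label against 42.1% to 42.5% in WT), Slc2a1 (at most 71.3% against 73.2% to 80.3%) and Eno1 (59.0% to 72.2% against 73.4% to 75.3%) lay wholly lower with the KO label and that of Aldoa (99.4% to 99.6% against 99.1% to 99.2%) wholly higher. Each of these 4 gave exact permutation p = 0.1 (0.175 adjusted over 7 ratios), and Hk2, Ldha and Slc16a3 overlapped. Among the KO-labelled controls, mouse 2 had the lowest summed skeletal muscle markers (8566 CPM). It also had the highest shares of Eno1 (49.6%), Pfkp (29.7%) and Slc2a1 (41.1%), while its Ldha share (83.8%) lay between those of the other controls.

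**Figure D3:**
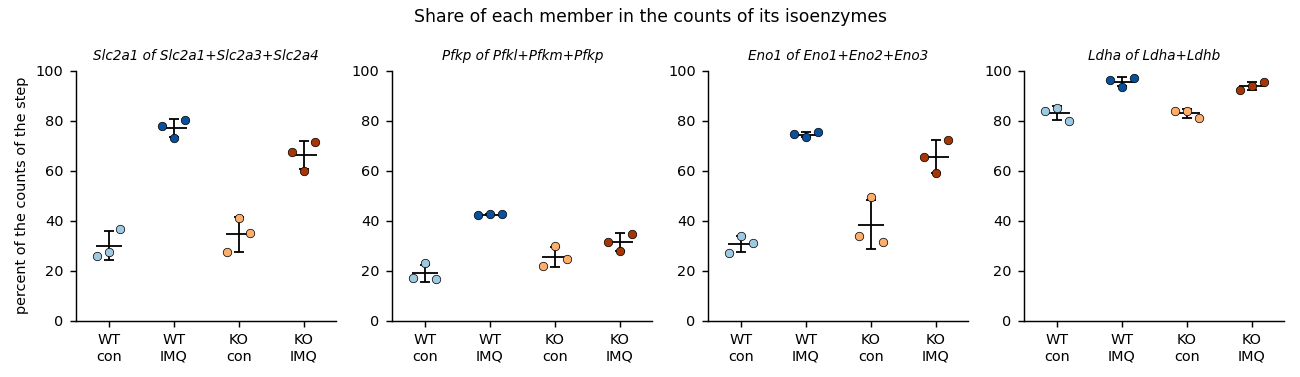
Share in percent of the raw counts of a step that fell on Slc2a1, Pfkp, Eno1 and Ldha in each mouse; points are mice, the bar is the group mean and the whiskers the SD of 3 mice. The WT IMQ points for Pfkp lie between 42.1% and 42.5%, above every other mouse.

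Transport showed the largest single changes of the pathway. Slc5a1, the sodium-coupled glucose transporter SGLT1, was at 7.16, 8.43 and 7.13 CPM in WT controls and at 134, 134 and 111 CPM in WT IMQ mice. That was 16.7-fold, a log2 fold change of 4.06 ± 0.19 (edgeR's quasi-likelihood test, adjusted p = 3.64e-07). Of the 12 other transporters, 3 rose and 3 fell in WT mice. Slc16a1, the lactate transporter MCT1, rose by 0.98 ± 0.14, Slc16a7, which encodes the pyruvate and lactate transporter MCT2, fell by 2.11 on the log2 scale, and the glucose transporter gene Slc2a12 fell by 2.51. The insulin-responsive transporter gene Slc2a4, known from muscle and fat, had a log2 fold change of -0.53 ± 0.18 (edgeR's quasi-likelihood test, adjusted p = 0.0423), which lost its call without any of the 6 mice. Slc2a3 did not pass (0.40 ± 0.30).

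**Figure D4:**
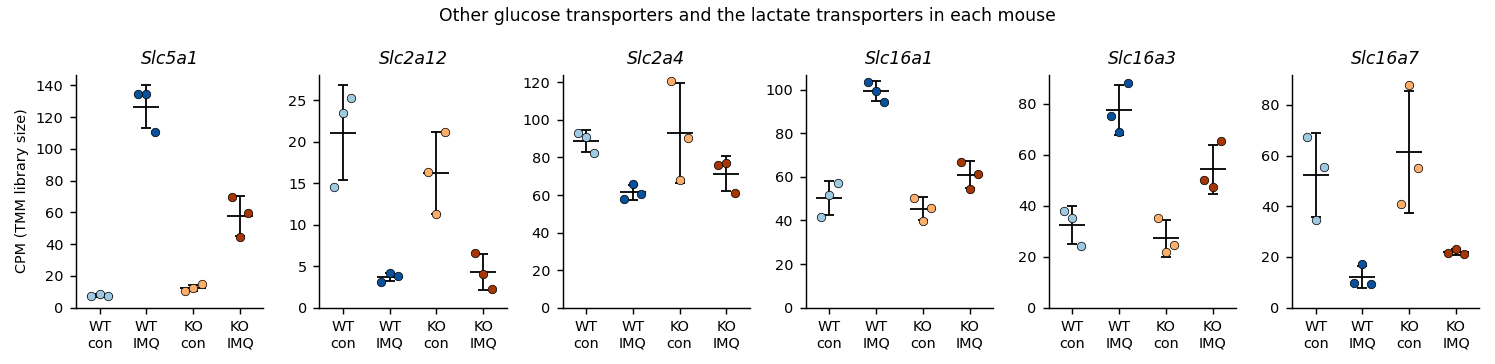
CPM of the glucose transporters Slc5a1, Slc2a12 and Slc2a4 and the lactate transporters Slc16a1, Slc16a3 and Slc16a7 in each mouse; points are mice, bars are group means and whiskers the SD of 3 mice, on linear axes from 0. Slc5a1 is at 111 to 134 CPM in WT IMQ mice and at 44.7 to 69.5 CPM in KO-labelled IMQ mice.

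Genes around the pathway were counted from lists. Among 18 regulators of glycolysis and of pyruvate use, 3 rose and 5 fell in WT mice: Pfkfb4, which makes or removes the activator of phosphofructokinase, rose by 1.29 ± 0.15, Arrdc4, an arrestin that limits glucose uptake, by 1.32 ± 0.16, and the mitochondrial pyruvate carrier subunit Mpc2 fell by 1.36. Of 20 HIF target genes outside glycolysis, 9 rose and 2 fell, among them Car12 (1.99 ± 0.23), Vegfa (1.78 ± 0.29) and Higd1a (1.63 ± 0.15) upwards and Plod2 (-2.40 ± 0.47) downwards. The prolyl hydroxylase Egln3, which marks HIF-α for destruction, rose by 2.30 ± 0.18 on the log2 scale, and 2 of the 9 HIF subunits and sensors rose while 1 fell. Of 19 genes of mitochondrial oxidation, 6 fell, none rose and all 19 had a negative log2 fold change, with a median of -0.29. The pentose phosphate pathway had 0 of 7 higher and 1 lower, Rpia.

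With the KO label, IMQ raised 6 of the 10 members: Slc2a1, Hk2, Eno1, Pkm, Slc16a3 and Hif1a. Over all genes, 25.3% were called in this comparison, 14.1% as higher and 11.2% as lower. No member fell. The median log2 fold change of the members was 0.77, against -0.05 over all genes. In 7 members, these 6 and Pgk1, each IMQ mouse stood above each control, as it did in 23.1% of all genes; 22.8% lay wholly lower, 45.9% in all.

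Slc2a1 was at 49.7, 51.7 and 53.1 CPM in KO-labelled controls and at 183, 132.5 and 198 CPM after IMQ, a log2 fold change of 1.73 ± 0.18 (edgeR's quasi-likelihood test, adjusted p = 0.000104). Hif1a was at 96.5, 114 and 109 CPM in controls and at 271, 222 and 282 CPM after IMQ, a log2 fold change of 1.28 ± 0.12 (edgeR's quasi-likelihood test, adjusted p = 4.21e-05). For both genes every IMQ mouse stood above every control, with IMQ mouse 2 the lowest of its group.

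Eno1 was at 289.8, 254 and 222 CPM in KO-labelled controls and at 469, 479.7 and 565 CPM after IMQ (log2 fold change 0.98 ± 0.16), Pkm at 657, 477 and 573 CPM and at 1034, 1015 and 1148 CPM (0.91 ± 0.15), and Slc16a3 at 35.3, 21.7 and 24.6 CPM and at 50.01, 47.5 and 65.3 CPM (0.99 ± 0.22). None of the 3 overlapped between control and IMQ. Hk2 was at 113, 91.1 and 109.8 CPM in controls and at 156, 159 and 174 CPM after IMQ, a log2 fold change of 0.64 ± 0.20 (edgeR's quasi-likelihood test, adjusted p = 0.0396) whose call was lost without any of the 6 mice (adjusted p between 0.0558 and 0.128) and with upper quartile scaling (0.0711). Those 6 mice are KO-labelled controls 1, 2 and 3 and KO-labelled IMQ mice 1, 2 and 3.

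Pfkp, Pgk1, Ldha and Aldoa did not pass with the KO label. Pfkp was at 125, 105 and 127.5 CPM in controls and at 142, 117.5 and 143 CPM after IMQ, so the groups overlapped, and its log2 fold change was 0.17 ± 0.16. Pgk1 was at 295, 241 and 228 CPM in controls and at 309, 299 and 336 CPM after IMQ (0.31 ± 0.14). Ldha was at 887, 561 and 645 CPM and at 850.5, 943 and 955 CPM (0.39 ± 0.17), and passed only without KO-labelled control 1 (edgeR's quasi-likelihood test, adjusted p = 0.0221). Aldoa was at 2034, 1195 and 1824 CPM and at 1370, 1537 and 1240 CPM, with control mouse 2 the lowest of all 6. The summed skeletal muscle markers of that control mouse were 8566 CPM, against 14935 and 15783 CPM in the other 2 controls and 7774 to 11595 CPM after IMQ, and 6 of the 15 fell with IMQ while Myh2 rose. Keratinocyte markers summed to between 6323 and 9379 CPM in KO-labelled controls and to between 14827 and 20447 CPM after IMQ, and 9 of 15 rose. Of the tested markers, 8 of 9 neutrophil, 7 of 9 endothelial and 6 of 10 fibroblast genes rose, and all 11 hair follicle genes fell. The part of these marker shifts in the member values was not tested.

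Of the other pathway genes with the KO label, 6 of 16 enzymes rose and 2 fell, and 4 of 12 transporters rose and 2 fell. Slc5a1 was at 10.7, 12.2 and 14.7 CPM in controls and at 69.5, 44.7 and 59.7 CPM after IMQ, a log2 fold change of 2.21 ± 0.18 (edgeR's quasi-likelihood test, adjusted p = 2e-05). Pfkl (0.95 ± 0.15) and Pgam1 (0.88 ± 0.17) rose and Ldhb (-1.29 ± 0.28) fell, as in WT. Hk3, the hexokinase of myeloid cells, rose by 2.13 ± 0.56 (edgeR's quasi-likelihood test, adjusted p = 0.0183; 3 of 6 calls kept when mice were dropped one at a time), and 9 of 10 macrophage markers rose in the same comparison, from a summed 1033 to 1768 CPM in controls to between 3911 and 5190 CPM after IMQ. Of the 20 HIF targets 9 rose and 1 fell, among them Ddit4 (2.25 ± 0.20) upwards. Regulators and pyruvate genes gave 3 higher and 4 lower of 18, HIF subunits and sensors 4 higher and 1 lower of 9, mitochondrial oxidation 1 higher and 4 lower of 19, and the pentose phosphate pathway 1 higher and 1 lower of 7.

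**Figure D5:**
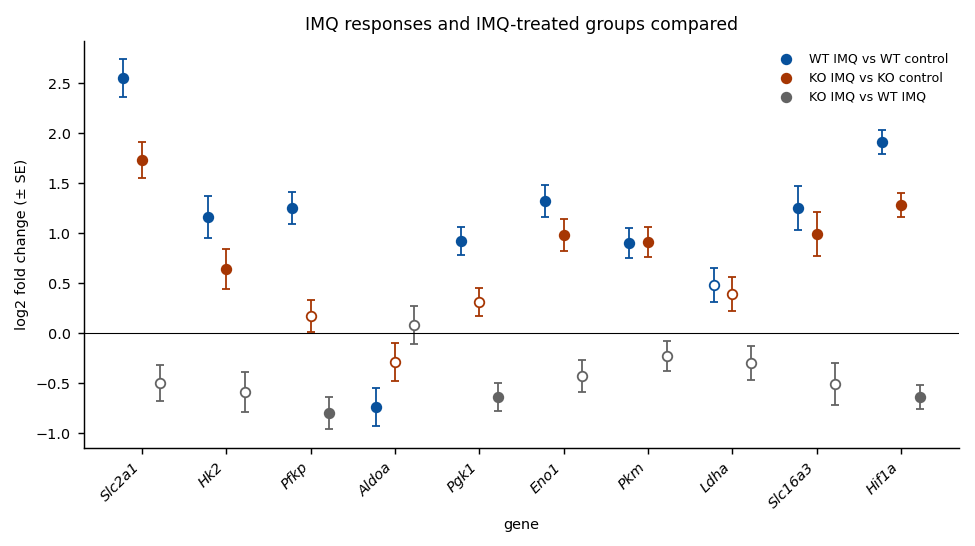
log2 fold change ± SE from edgeR of each member for IMQ over control in WT (blue) and KO-labelled mice (brown), and for KO-labelled IMQ over WT IMQ (grey); filled points passed an adjusted p of 0.05. In the grey series 9 of 10 points lie below 0 and Pfkp, Pgk1 and Hif1a are filled.

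Under IMQ, the KO-labelled mice had lower Pfkp, Pgk1 and Hif1a than the WT mice. These 3 of 10 members were called, against 4.78% of all genes in either direction (2.19% higher, 2.6% lower). Their log2 fold changes were -0.80 ± 0.16, -0.64 ± 0.14 and -0.64 ± 0.12 (edgeR's quasi-likelihood test, adjusted p = 0.0276, 0.0353 and 0.0234). For Hif1a this set 271, 222 and 282 CPM against 417, 394 and 400.5 CPM, for Pfkp 142, 117.5 and 143 CPM against 253, 194 and 254 CPM, and for Pgk1 309, 299 and 336 CPM against 543.5, 412 and 515 CPM. In each of the 3 the highest KO-labelled mouse lay below the lowest WT mouse.

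Those calls rested on 5 of the 6 mice. Without any of WT IMQ mice 1 and 3 or KO-labelled IMQ mice 1, 2 and 3, 0 members were called, while the log2 fold changes stayed between -0.91 and -0.71 for Pfkp, -0.74 and -0.56 for Pgk1 and -0.71 and -0.54 for Hif1a. Without WT IMQ mouse 2, 5 were called: these 3, Hk2 (-0.82) and Eno1 (-0.54). The count over all genes moved in the same way, from 886 to between 0 and 4 without each of the same 5 mice and to 2726 without WT IMQ mouse 2.

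Of the other 7 members, Slc2a1 (-0.50 ± 0.18), Hk2 (-0.59 ± 0.20), Eno1 (-0.43 ± 0.16), Pkm (-0.23 ± 0.15), Ldha (-0.30 ± 0.17) and Slc16a3 (-0.51 ± 0.21) had negative values that missed the threshold, and Aldoa had 0.08 ± 0.19. In 7 of the 10 members the 2 IMQ groups did not overlap, all with the KO-labelled mice lower, where 33.3% of all genes did not overlap and 17.3% with the KO-labelled mice lower. Keratinocyte markers were lower in the same libraries, 5 of 15 passing the test (14 had an unadjusted p below 0.05 and DESeq2 called 11). All 15 had a negative log2 fold change (median -0.70) and lay without overlap. Fibroblast markers were higher, 4 of 10 passing the test, all 10 with a positive value and 9 without overlap, and summed to between 20886 and 21763 CPM with the KO label against 10778 to 11469 CPM in WT. Of 9 endothelial markers edgeR's quasi-likelihood test called 0 (7 had an unadjusted p below 0.05 and DESeq2 called 4), but all 9 were positive and without overlap, with summed levels of 1007 to 1053 CPM against 501.2 to 832 CPM. Of 15 proliferation genes it called 0 (1 below 0.05 unadjusted, 0 by DESeq2), with all 15 negative and 12 without overlap, and summed levels of 741 to 825 CPM against 927 to 1177 CPM. These 15 did not rise with IMQ over control in WT, with 0 called (0 below 0.05 unadjusted, 0 by DESeq2) and 11 negative. Their summed levels in WT controls 1, 2 and 3 were 1362, 524 and 1588 CPM, beside summed hair follicle markers of 2227, 4.47 and 1197 CPM. In WT IMQ mice the hair follicle markers summed to at most 51.05 CPM. Under the KO label all 15 proliferation genes were negative with IMQ and 1 was called, as lower. There the hair follicle markers summed to 117 to 7855 CPM in controls and to at most 8.83 CPM after IMQ. The part of hair follicle content in the proliferation values was not tested. Between the IMQ groups, skeletal muscle and neutrophil markers had 0 of 15 and 0 of 9 called (1 each below 0.05 unadjusted, 0 by DESeq2). Adipocyte and macrophage markers were positive in all 10 of each, with 0 called (6 and 1 below 0.05 unadjusted, 3 and 1 by DESeq2). All 5 erythroid markers were positive and all 11 tested hair follicle markers negative, with 0 called (0 below 0.05 unadjusted, 0 by DESeq2). Of 10 T cell markers 9 were positive and 1 was called, as lower. The part of these lists in the member values was not tested. Outside the list, Slc5a1 (-1.13 ± 0.17) and Slc16a1 (-0.70 ± 0.13) were lower and Mpc2 (1.08 ± 0.20), Ddit4 (0.93 ± 0.19) and Cox5a (0.72 ± 0.17) higher with the KO label. Each of these 5 kept its call in 1 of 6 cases when mice were dropped one at a time.

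The difference between the IMQ responses was tested on its own, as the response under the KO label minus that in WT. Pfkp was the only member called, at -1.08 ± 0.22 (edgeR's quasi-likelihood test, adjusted p = 0.0402), against 2.15% of all genes, 1.37% higher and 0.783% lower. With the 12 mice dropped one at a time the call held 4 times, namely without WT control 2 or 3, WT IMQ mouse 2 or KO-labelled control 1, and was lost without any of the other 8, with adjusted p up to 0.13. Hif1a (-0.63 ± 0.16, adjusted p = 0.0651), Slc2a1 (-0.82 ± 0.25, adjusted p = 0.0921) and Pgk1 (-0.61 ± 0.20, adjusted p = 0.105) came next and missed the threshold of edgeR's quasi-likelihood test. The differences of Pkm (0.00 ± 0.21) and Ldha (-0.09 ± 0.25) were smaller than their standard errors. For this difference all 15 keratinocyte markers were negative (median -0.84, 0 called, 12 below 0.05 unadjusted, 7 by DESeq2). All 10 fibroblast markers were positive (median 0.87, 3 called), as were all 10 macrophage markers (median 1.71, 0 called, 4 by DESeq2). Skeletal muscle markers were positive in 14 of 15 (median 0.62, 0 called, 2 by DESeq2). The part of these lists in the member values was not tested.

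Without IMQ, 0 of the 10 members differed between the genotype labels by edgeR's quasi-likelihood test, 0 had an unadjusted p below 0.05, and DESeq2 called 0. Over all genes 0.0108% were called, 0.0054% in each direction. Log2 fold changes of the KO-labelled over the WT controls ran from -0.38 ± 0.19 for Aldoa to 0.32 ± 0.18 for Slc2a1, with Hif1a at -0.01 ± 0.12, Pgk1 at -0.03 ± 0.14 and Hk2 at -0.07 ± 0.20. Only the control groups of Aldoa did not overlap, with the KO-labelled mice lower, where 9.37% of all genes did not overlap 5.18% in that direction and 4.19% in the other.

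Over the 12 mice, the log2 CPM of 9 members ran together, with r between 0.72 and 0.97 for their pairs, and Aldoa ran against them. Pearson's r between Slc2a1 and Hif1a was 0.97, as was that between Eno1 and Pkm, and the pairs of Aldoa with the others lay between -0.77 (Slc2a1) and -0.26 (Ldha). These values describe 12 libraries that share their treatment groups and carry no test. The genes outside the list most like each member, up to 3 of them, were taken by the same r. For Slc2a1 they were Fam162a (0.99) and the epidermal protease inhibitor Csta1 (0.99), and for Hif1a they were Rreb1 (0.993), Rab11a (0.992) and Dusp7 (0.99). Eno1 was followed by Twf1 (0.991), Duox1 (0.988) and the phosphofructokinase Pfkl (0.984), and Pkm by Duox1 (0.975), Clec2g (0.971) and Fbxl22 (0.97). Aldoa was followed by Rtn2 (0.968), the muscle enolase Eno3 (0.956) and Gmpr (0.947), and Ldha by the glycolytic isomerase gene Tpi1 (0.956), Serpinb1a (0.949) and Lmbr1 (0.944). For Hk2 these genes were Tcf25, Slc30a7 and Ccdc9b (0.977 to 0.982), for Pfkp Mst1r and Rin1 (0.971 to 0.982), for Pgk1 Riok3, Gm7665 and the asparagine synthetase Asns (0.96 to 0.973), and for Slc16a3 Ripk3, Adam8 and Gpr35 (0.97 to 0.974).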

How the data were processed

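Skin RNA of 12 mice was sequenced by the authors as paired reads of 150 bp, and 1 table of raw counts per Ensembl gene was deposited by them. The submitters' processing notes name HISAT and mm8 without version or role, and the counter, the annotation and the use of strand are not given in the sources used here. Names, positions and exon lengths came from GENCODE M21 (GRCm38), which held 52073 of the identifiers (91.48%); the others held 0.567% of counts. Promoter sequences came from RefSeq (GRCm38.p6).

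Counts were tested with edgeR 4.0.16 (limma 3.58.1, R 4.3.3): TMM factors, filterByExpr (minimum count 10, total 15), robust quasi-likelihood fit of 4 group means over 12 mice, and Benjamini-Hochberg adjustment over 18529 genes. The common biological coefficient of variation was 0.253. DESeq2 1.42.0, which the study names, was an alternative. P-values of the fit rest on the spread between mice within groups of 3, estimated jointly over the 4 groups. Near-identical copies were stretches of 300 bases or more at 95% identity found with blastn 2.17.0. Simulated data took each gene's mean over all 12 mice, with the changes placed in WT IMQ. The test of WT IMQ against WT control gave back 72 of 100 4-fold and 37 of 100 2-fold changes. Among its 114 calls over 18206 genes, 5 were false. Only these 100 and 100 genes were changed, while 28.5% of genes were called between the real WT groups. The recovered shares therefore do not measure how many real changes the test finds.

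Replicate numbers are shared across groups but name different mice, and none of the 66 pairs of libraries agreed within sampling noise (chi-square per degree of freedom of at least 11.82). By this measure WT IMQ mouse 2 lay nearer to KO-labelled IMQ mice 1 and 3 (33.74 and 43.39) than to WT IMQ mice 1 and 3 (50.86 and 51.36). Its value to KO-labelled IMQ mouse 2 was 54.83, and the cause was not tested. Library totals of 16448226 to 28592110 counts set the precision, and floors cover counting error only. All members were named; of other pathway genes, those with adjusted p below 0.05 in a comparison and isoenzymes of members were eligible, and the 3 most correlated genes (mean of at least 1 CPM) were taken for each member; a few genes that this selection would name are not reported here. The members and lists were chosen with earlier results of these data known. Alternatives were scaling, tool, filter, samples in the fit, replicate block, fold threshold, and each mouse left out.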

Additional observations from a re-analysis of the deposited data

Results flagged for a closer look

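5 genes stood out because their IMQ responses differed between the genotype labels (edgeR's quasi-likelihood test, response under the KO label minus response in WT). Pfkp, a member, differed by -1.08 on the log2 scale (adjusted p = 0.0402), with 1.25 ± 0.16 in WT and 0.17 ± 0.16 in KO-labelled mice. Slc5a1, the sodium-coupled glucose transporter, differed by -1.85 (adjusted p = 0.017), and it rose under both labels. Mpc2, a subunit of the mitochondrial pyruvate carrier, differed by 1.85 (adjusted p = 0.0194), with a fall of WT mice from 78.3, 78.3 and 55.4 CPM to 22.2, 34.5 and 25.9 CPM and, with the KO label, 47.2, 36.3 and 40.9 CPM in controls against 53.2, 70.3 and 51.0 CPM after IMQ. Ddit4, a HIF target that restrains mTOR signalling, differed by 1.83 (adjusted p = 0.0188), with 59.5, 66.3 and 84.6 CPM in KO-labelled controls and 356, 306 and 338 CPM after IMQ. Cox5a, a subunit of cytochrome oxidase, differed by 1.09 (adjusted p = 0.0431). With the 12 mice dropped one at a time, the calls held 4 (Pfkp), 9 (Slc5a1), 6 (Mpc2), 7 (Ddit4) and 3 (Cox5a) times.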

How the results depend on the processing

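Between the 2 IMQ groups and for the difference of responses, calls moved with single mice and settings, and the cause was not tested. The calls of members in WT held under every scaling, tool and filter tried (9 or 10 called); upper quartile scaling moved the median of all genes in WT from -0.025 to -0.126 on the log2 scale. With a fold change above 2 also required, 2765 genes passed for WT IMQ against control (main 5287), 2528 and 2 members for the KO label (main 4691 and 6), and 279 and 0 members for the 2 IMQ groups (main 886 and 3). Leaving out each mouse gave 3289 (without WT IMQ mouse 1) to 5662 genes for WT, 2747 (without KO-labelled IMQ mouse 3; 2981 without KO-labelled control 3) to 4288 for the KO label, 0 to 2726 genes and 0 to 5 members between the IMQ groups, 0 to 32 genes between the controls (main 2), and 2 to 1927 genes and 0 to 4 members for the difference of responses (main 398 and 1). DESeq2 on all mice called 2659 genes between the IMQ groups, 115 between the controls, and 2060 genes and 4 members for the difference; on the compared mice only it called 3323 genes and 5 members between the IMQ groups and 57 between the controls, and edgeR on the compared mice only 1894 and 0. Without a filter, 6 genes were called between the controls. The mice share only replicate numbers (mean correlation of deviations -0.051 over 18 pairs, 1 above 0.1); with the replicate block, 136 genes and 0 members were called between the IMQ groups, 0 genes between the controls, and 10 genes and 0 members for the difference.

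Lcn2 missed the threshold between the IMQ groups (-1.49, adjusted p = 0.0525 by edgeR's quasi-likelihood test), also without a filter (0.153), with the replicate block (0.095) and with any of the 6 mice left out (-1.77 to -0.85, the last without WT IMQ mouse 2). It passed with DESeq2 on all mice (-1.48), with a filter of 10 counts per mouse (-1.49), and on the compared mice with edgeR (-1.47) and DESeq2 (-1.48), and for the difference of responses (-2.36, adjusted p = 0.0552) with DESeq2 (-2.37) and at least 10 counts (-2.36); leaving out a mouse gave -2.64 to -1.72, and only the last, without WT IMQ mouse 2, passed (adjusted p = 0.0312). Its response with the KO label missed the threshold without a filter (1.65) and without KO-labelled IMQ mouse 3 (1.43, adjusted p = 0.0536), and reached 1.94 with another mouse left out. Values near 0 changed sign: between the controls, Hif1a with RLE scaling or DESeq2 (0.00) and, with a mouse left out, Hk2 (-0.15 to 0.02), Pgk1 (-0.15 to 0.05), Eno1 (-0.19 to 0.01) and Hif1a (-0.07 to 0.05); for the difference, Pkm with RLE scaling, DESeq2 or at least 10 counts (-0.01) and with a mouse left out (-0.11 to 0.12), and Ldha (-0.22 to 0.13). None of these was called. The log2 ratio of a member to the rest of its step also changed sign with a mouse left out, for Slc16a3 in WT (-0.02 to 0.54), for Aldoa with IMQ under the KO label (-0.35 to 0.33), and between the controls for Aldoa (-0.61 to 0.07), Ldha (-0.18 to 0.09) and Slc16a3 (-0.42 to 0.14).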
